A study of Mus musculus with 2 samples.

Results

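The genes described here are 30 genes of glycolysis and of the transcriptional response to low oxygen, chosen by gene symbol from the 32245 symbols counted in each library. All 30 were found in both libraries. The libraries are single-cell RNA counts of mouse forebrain at embryonic day 18.5, 1 from wild-type embryos and 1 labelled as a Cyfip2 knockout. Each was made from 2 forebrains that were dissociated with papain and pooled, so each group has 1 library and no difference between the groups has a replicate check. No test between the groups was made. Cyfip2, which encodes a subunit of the actin-regulating WAVE complex, had 84.9 CPM over all wild-type cells (UMIs of the gene per 1000000 UMIs, where a UMI stands for 1 captured RNA molecule) and 84.4 over all cells of the other library. It had 106 and 93.2 CPM in excitatory neurons, 86.4 and 78.6 in GABAergic neurons, and 41.6 and 66.8 in progenitors. The transcript was thus present in the library labelled knockout, lower in some classes and higher in another, and a 3′ tag count need not report a deletion elsewhere in the gene. That library is called the knockout-labelled library here, and of each pair of values the first is wild type.

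Glycolysis splits glucose into pyruvate and yields ATP without oxygen. Lactate dehydrogenase then turns pyruvate into lactate, while pyruvate dehydrogenase feeds it into the mitochondrion unless a pyruvate dehydrogenase kinase shuts that gate. When oxygen is short, the prolyl hydroxylases of the Egln family no longer mark the hypoxia-inducible factor for destruction, and the stabilised factor binds a short DNA element near many genes of glucose uptake, glycolysis, vessel growth and mitochondrial turnover. In the developing forebrain, radial glia and other progenitors are known for strong glycolytic expression, and neurons for a shift towards oxidative metabolism as they mature.

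The core of the element bound by the hypoxia-inducible factor is ACGTG, which was searched on both strands. Promoter sequences of 5 members from RefSeq (build GRCm38.p6) show how these cores are placed in genes of lactate formation, glycolysis, glucose uptake, mitochondrial turnover and oxygen sensing. Each sequence is the 250 bases before the annotated start, 5′ to 3′ on the strand of the gene, with the core, on either strand, in capitals.
Ldha, chr7:46845554-46845803, plus strand: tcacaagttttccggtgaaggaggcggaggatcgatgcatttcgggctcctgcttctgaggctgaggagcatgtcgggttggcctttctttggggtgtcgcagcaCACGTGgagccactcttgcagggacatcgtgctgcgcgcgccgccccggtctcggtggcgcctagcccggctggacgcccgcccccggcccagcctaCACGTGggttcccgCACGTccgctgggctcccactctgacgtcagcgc
Pgk1, chrX:106186850-106187099, plus strand: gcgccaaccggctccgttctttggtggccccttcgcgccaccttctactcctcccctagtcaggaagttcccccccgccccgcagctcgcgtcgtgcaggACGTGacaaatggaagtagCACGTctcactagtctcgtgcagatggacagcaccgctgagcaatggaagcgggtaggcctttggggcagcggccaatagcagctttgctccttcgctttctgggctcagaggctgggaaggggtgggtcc
Bnip3, chr7:138909507-138909756, minus strand: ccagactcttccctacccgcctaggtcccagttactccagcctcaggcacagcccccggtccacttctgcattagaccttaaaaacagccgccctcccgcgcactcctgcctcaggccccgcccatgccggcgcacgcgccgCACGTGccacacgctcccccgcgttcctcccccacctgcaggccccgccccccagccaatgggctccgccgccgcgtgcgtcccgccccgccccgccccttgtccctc
Slc2a1, chr4:119108495-119108744, plus strand: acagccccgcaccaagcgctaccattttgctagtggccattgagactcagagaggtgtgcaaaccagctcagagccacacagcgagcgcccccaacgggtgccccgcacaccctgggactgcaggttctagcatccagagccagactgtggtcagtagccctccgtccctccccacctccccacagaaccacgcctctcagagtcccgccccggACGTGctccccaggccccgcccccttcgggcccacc
Egln1, chr8:124949255-124949504, minus strand: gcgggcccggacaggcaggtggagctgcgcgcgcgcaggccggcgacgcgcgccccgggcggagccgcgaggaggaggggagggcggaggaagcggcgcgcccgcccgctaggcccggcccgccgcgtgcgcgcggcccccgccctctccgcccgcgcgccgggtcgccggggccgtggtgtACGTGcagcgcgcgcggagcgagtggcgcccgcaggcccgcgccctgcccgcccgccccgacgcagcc
The window of Ldha held 5 matches, counting each palindrome CACGTG on both strands, and the nearest began 34 bases before the start. Pgk1 had matches 150 and 131 bases before its start. Bnip3 had 1 palindrome at 108 bases. Slc2a1 had 1 core at 36 bases, and Egln1 had 1 at 68 bases.

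Over the 300 bases from 250 before to 50 after each start, 22 of the 41 promoters listed for 29 members held ACGTG on either strand (53.7%). The share was 19.6% of all 32851 mouse promoters of the same length and 26.0% of the 7153 promoters of genes at 20 CPM or more in these cells. Counted by gene, 21 of 29 members (72.4%) had at least 1 such promoter, against 21.8% of all genes and 30.4% of the expressed genes. The members include genes chosen in the field as targets of the factor, so this describes the list and is no independent evidence. With the looser core, in which GCGTG also counts, 78.0% of member promoters held a match, beside 43.8% of all and 65.4% of expressed promoters. The palindrome CACGTG was found in 4.88% of member promoters and 7.15% of all. A match is a run of letters and not a bound site, and no factor binding was measured.

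The libraries held 123978461 and 150828048 UMIs, and 8426 and 11533 cells were kept after doublets were removed, with medians of 9567 and 7787 UMIs per cell. The libraries shared 32 cell barcodes, where 17.2 are expected from their numbers alone. Cells were clustered without the 30 members and without 64 further genes of the same pathways, and clusters were named from marker genes. Every class name below stands for cells "like" that type. Excitatory neurons numbered 4332 and 5507, GABAergic neurons 2084 and 3591, and progenitors 1628 and 1841. Endothelial cells numbered 7 and 41, choroid plexus cells 34 and 14, and radial glia 336 and 281. Cluster 17, with 180 and 261 cells of low depth, stayed unnamed. UMIs of a gene were summed over the cells of a class, and all intervals are exact 95% intervals that cover counting error only. Levels of different genes are not compared, since each gene is captured at its own rate. Gapdh, Pgam1, Eno1, Aldoa, Pkm, Ldha, Tpi1, Pgk1 and Mif have near-identical copies in the genome, so their counts are uncertain to that extent.

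The first question was which cells carry these transcripts. Among the 11 classes with at least 50 cells in each library, 27 of 30 members had their highest CPM in the same class in both libraries. For 16 of them that class was radial glia, the ventricular stem cells of the cortex. These were the glucose transporter Slc2a1, Gpi1, Pfkl, Aldoa, Aldoc, Tpi1, Pgk1, Pgam1, Eno1, Ldha, Pdk1, Egln3, P4ha1, Higd1a, Fam162a and Vegfa. The next class overlapped radial glia within counting error for Pdk1 and Higd1a in both libraries. The same held for Pgk1 and Vegfa in the knockout-labelled library. Summed over the 16 members of glycolysis, radial glia held 5895 and 6026 CPM, ganglionic eminence (GE) progenitors 4455 and 5041, excitatory neurons 2467 and 2490, and GABAergic neurons 2230 and 2395. Outside the 11 classes, this sum was 6557 and 4948 CPM in choroid plexus cells, 4390 and 6722 in endothelial cells and 5246 and 4930 in microglia. Over all cells, Gapdh alone made up 1133 of 2907 CPM and 1120 of 2911 CPM of the glycolysis sum. The sum over the 14 members that are known mainly as hypoxia targets ranged less, with 1836 and 1939 CPM in radial glia, 1435 and 1524 in excitatory neurons and 1088 and 1167 in GABAergic neurons. Mif made up most of this sum, with 883 of 1355 CPM and 891 of 1400 CPM over all cells. The range of the sum therefore need not be that of the other targets.

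**Figure D1:**
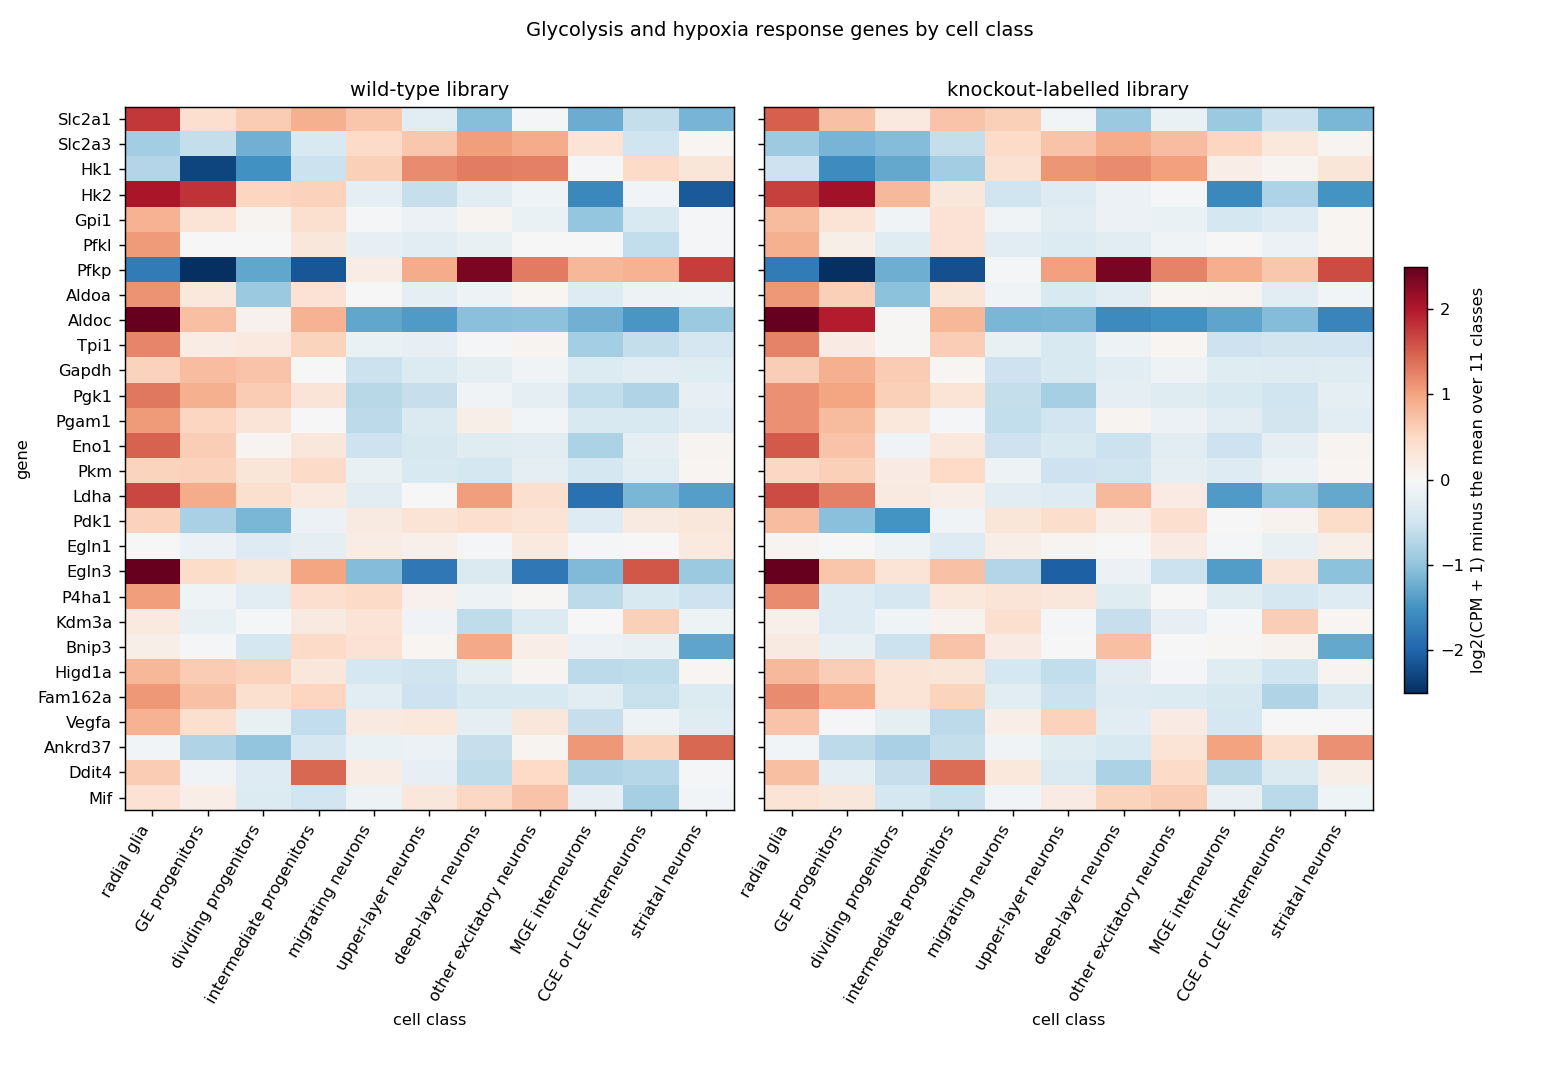
Level of 28 members (Adm and Car9 are left out as nearly absent) in 11 cell classes of the wild-type library (left) and the knockout-labelled library (right), as log2(CPM + 1) minus the mean of the gene over the 11 classes. Most members are reddest in radial glia, while Slc2a3, Hk1, Pfkp and Bnip3 are reddest in deep-layer neurons in both libraries.

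Glucose enters through carriers whose cell classes differed. Slc2a1 (GLUT1, chr4:119108711-119137983, plus strand, mm10), the carrier of the blood-brain barrier, stood at 38.2 and 36.0 CPM in radial glia. Its lowest classes were medial ganglionic eminence (MGE) interneurons in wild type (3.87) and striatal neurons in the knockout-labelled library (4.92). Slc2a3 (GLUT3), the neuronal carrier, was highest in deep-layer neurons with 20.2 and 18.3 CPM, where other excitatory neurons came next within counting error. It was lowest in dividing progenitors (3.48) and in GE progenitors (3.58). Slc2a3 gave 81.5% (76.4 to 86.0) and 75.7% (69.7 to 81.1) of the UMIs of these carriers in deep-layer neurons. In radial glia its share was 10.8% (7.02 to 15.6) and 11.04% (6.68 to 16.9). Outside the 11 classes, Slc2a1 reached 1167 and 2136 CPM in the few endothelial cells and 121 and 78.8 CPM in choroid plexus cells.

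The first steps of the pathway also had different isozymes in progenitors and neurons. Hexokinase 1 (Hk1), which traps glucose in the cell as its phosphate, was highest in deep-layer neurons with 68.5 and 69.2 CPM and lowest in GE progenitors with 4.81 and 9.31. Hk2, the inducible hexokinase, was highest in radial glia in wild type (35.7 CPM) and in GE progenitors in the other library (35.5), which overlapped within counting error. It was at 1.08 in striatal neurons of wild type and 1.77 in MGE interneurons of the other library, its lowest classes. Of the UMIs of both hexokinases, Hk2 gave 68.9% (63.0 to 74.4) and 56.5% (49.2 to 63.7) in radial glia, and 9.41% and 9.57% in excitatory neurons. In microglia Hk2 stood at 249 and 235 CPM and gave 98.5% and 96.2% of these UMIs. Pfkp, the platelet-type phosphofructokinase, ranged most widely of the upper enzymes, from 78.0 and 89.4 CPM in deep-layer neurons to 0.962 and 1.79 in GE progenitors. It gave 45.3% and 50.1% of phosphofructokinase UMIs in deep-layer neurons, and 2.90% and 3.31% in radial glia. Pfkl, the liver-type enzyme of the same step, had the opposite order. It was at 98.2 and 95.04 CPM in radial glia and lowest in caudal or lateral ganglionic eminence (CGE or LGE) interneurons in wild type (30.0) and in upper-layer neurons in the other library (40.1). Gpi1, the isomerase between these steps, stood at 169 and 173 CPM in radial glia and was lowest in MGE interneurons with 46.4 and 73.3.

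Among the enzymes that split and oxidise the sugar, the aldolases separated the classes most sharply. Aldoc (chr11:78322968-78327781, plus strand, mm10), the brain aldolase and a known marker of radial glia and astrocytes, stood at 603 and 568 CPM in radial glia. Its lowest classes were CGE or LGE interneurons in wild type (1.18) and striatal neurons in the other library (0.867). After every cell was thinned to 1000 UMIs, 37.2% (32.02 to 42.6) and 34.9% (29.3 to 40.8) of radial glia had an Aldoc UMI. In excitatory neurons, which should lack the gene, the share was 0.208% and 0.145% and is read as background (median depths 10584 and 8525 UMIs, against 15145 and 14501 in radial glia). Unthinned shares of radial glia were 87.8% and 84.3%. Aldoc gave 70.7% (69.3 to 72.0) and 68.0% (66.4 to 69.6) of aldolase UMIs in radial glia and 1.43% and 1.18% in excitatory neurons. Aldoa, the widespread aldolase, ranged from 250 and 268 CPM in radial glia to 59.6 and 61.4 in dividing progenitors, and reached 608 and 605 in Cajal-Retzius cells. Gapdh was highest in GE progenitors with 2047 and 2207 CPM and lowest in migrating neurons with 827 and 837. Tpi1, which interconverts the triose phosphates, stood at 340 and 371 CPM in radial glia and was lowest in MGE interneurons with 80.6 and 108.

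Most of the later enzymes were also highest in radial glia, apart from Pkm. Pgk1, the first step that makes ATP, stood at 391 and 359 CPM in radial glia, and its lowest classes were CGE or LGE interneurons in wild type (91.9) and upper-layer neurons in the other library (90.9). Pgam1 (phosphoglycerate mutase) ranged from 511 and 571 in radial glia to 155 and 169 in migrating neurons. Eno1 (enolase) stood at 390 and 423 CPM in radial glia, with lows of 80.7 in MGE interneurons and 99.7 in deep-layer neurons. Pkm (pyruvate kinase) varied least of these enzymes, from 653 and 679 CPM in GE progenitors to 323 in deep-layer neurons of wild type and 312 in upper-layer neurons of the other library. Ldha, which makes lactate, had one of the wider ranges, from 616 and 645 CPM in radial glia to 51.6 and 76.3 in MGE interneurons. Ldhb, the isozyme that favours lactate use, gave 79.2% (78.0 to 80.3) and 76.2% (75.2 to 77.1) of lactate dehydrogenase UMIs in GABAergic neurons. It gave 27.6% and 29.3% in deep-layer neurons and 36.9% and 38.9% in radial glia. The shares thus differed between these neuron classes, and radial glia lay between them. Pdk1, the kinase that shuts pyruvate dehydrogenase, stood at 25.3 and 31.5 CPM in radial glia and 6.97 and 5.76 in dividing progenitors.

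The oxygen-sensing and mitochondrial members showed several other orders. Egln3, a prolyl hydroxylase that the hypoxia-inducible factor itself induces, was at 55.5 and 59.3 CPM in radial glia and at 0.217 and 0.0625 in its lowest neuron classes, which are other excitatory and upper-layer neurons. It gave 35.8% (32.5 to 39.2) and 35.5% (31.9 to 39.3) of Egln UMIs in radial glia and 0.780% and 1.30% in excitatory neurons. Egln1 (chr8:124908587-124949324, minus strand, mm10), the main oxygen sensor, was close to even over the classes. Its highest class was striatal neurons in wild type (57.1 CPM) and other excitatory neurons in the other library (65.0), with lows of 37.9 in dividing progenitors and 44.8 in intermediate progenitors. P4ha1, the collagen prolyl hydroxylase, was at 48.8 and 60.3 CPM in radial glia, and Kdm3a, a histone demethylase, was highest in CGE or LGE interneurons with 55.6 and 57.5. P4ha1 was lowest in MGE interneurons of wild type (14.2) and CGE or LGE interneurons of the other library (19.2), and Kdm3a in deep-layer neurons with 23.0 and 24.4 CPM. Bnip3, a receptor for the removal of mitochondria, was highest in deep-layer neurons with 44.2 and 44.3 CPM and lowest in striatal neurons with 8.46 and 10.1. Higd1a (chr9:121848563-121858362, minus strand, mm10), an inner-membrane protein of the respiratory chain, stood at 180 and 203 CPM in radial glia, where GE progenitors overlapped it. Its lowest classes were MGE interneurons (63.7) and upper-layer neurons (74.3). Fam162a, a mitochondrial hypoxia target, ranged from 183 and 208 CPM in radial glia to 58.0 and 53.3 in CGE or LGE interneurons.

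The secreted and stress-linked members were not led by radial glia, apart from Vegfa. Vegfa, the growth factor for vessels, stood at 55.9 and 51.9 CPM in radial glia and 19.2 and 19.5 in intermediate progenitors, and at 115 and 155 in the few meningeal fibroblasts. In the knockout-labelled library upper-layer neurons (47.1 CPM) overlapped radial glia within counting error. Ddit4, an inhibitor of mTORC1, peaked in intermediate progenitors with 199 and 197 CPM, and was lowest in MGE interneurons (43.0) and in deep-layer neurons (42.7). Mif, a cytokine, was highest in other excitatory neurons with 1337 and 1286 CPM and lowest in CGE or LGE interneurons with 455 and 518. Ankrd37, a hypoxia target of unclear role, was highest in striatal neurons with 36.3 and 34.8 CPM and lowest in dividing progenitors with 5.99 and 8.28. Adm (adrenomedullin, a vessel-dilating peptide) did not pass 1.44 CPM in any of the 11 classes. Car9, an acid-balancing carbonic anhydrase, had 13 and 9 UMIs over all cells. The transcript of the oxygen-regulated factor, Hif1a, lay between 74.3 and 108 CPM in all 11 classes of both libraries. Its relative Epas1 did not pass 1.54 CPM in them, and had 312 and 258 CPM in endothelial cells and 258 and 227 in mural cells.

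The next question was whether levels differed between the libraries. A gene was measured in a comparison where 1 library or both reached 20 CPM and the summed UMIs reached 100, and as past the size rule with a 1.5-fold ratio whose interval leaves out 1. Over all cells, 24 members were measured, and only Slc2a1 passed the size rule, where 0.542% of 7010 genes did. The ratio's interval lay above 1 for 11 members and below 1 for 3, beside 17.2% and 31.7% of all genes. The median log2 ratio of the measured members was 0.04, and that of all measured genes was -0.02. The 14 measured members of glycolysis had 6 above and 3 below, with a median of 0.02. Of the 10 measured hypoxia targets, 5 were above and 0 below, with a median of 0.06. By role, the intervals above 1 belonged to Slc2a1, 3 upper enzymes (Gpi1, Pfkl, Pfkp), 2 lower enzymes (Aldoa, Pgam1), Pdk1, Egln1, P4ha1, Higd1a and Vegfa. Those below belonged to Aldoc, Gapdh and Ldha. With equal weights for each cluster Gapdh (0.015) and Vegfa (-0.015) changed side. The members not measured were Slc2a3, Hk2, Egln3, Adm, Ankrd37 and Car9.

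Slc2a1 had 14.6 CPM in wild type and 29.9 in the knockout-labelled library over all cells, a log2 ratio of 1.04 (0.95 to 1.13). The call did not hold in other sums: the ratio was 0.56 with doublets kept, 0.22 with equal weights for each cluster, 0.37 with each cell weighted equally and 0.42 among cells of 5000 to 15000 UMIs. The 41 endothelial cells of the knockout-labelled library, 0.356% of its cells, held 1851 of its 3276 Slc2a1 UMIs (56.5%), while the 7 of wild type held 71 of 1417. Without endothelial cells the levels were 13.8 and 13.1 CPM, and the log2 ratio was -0.08 (-0.19 to 0.03). Adm had 54 and 407 UMIs, under the minimum level, and endothelial cells held 83.8% of the latter. Without them Adm was at 0.494 and 0.607 CPM (0.30, -0.26 to 0.86). Ankrd37 had 13.6 and 19.7 CPM (0.54), and 13.6 and 17.1 without endothelial cells (0.34, 0.23 to 0.44). The sum of 10 endothelial markers over all cells was 31.5 and 136 CPM, with all 10 higher in the knockout-labelled library. In bulk-like sums such as these, a different number of cells and a different RNA content per cell cannot be told apart by the sum alone.

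**Figure D2:**
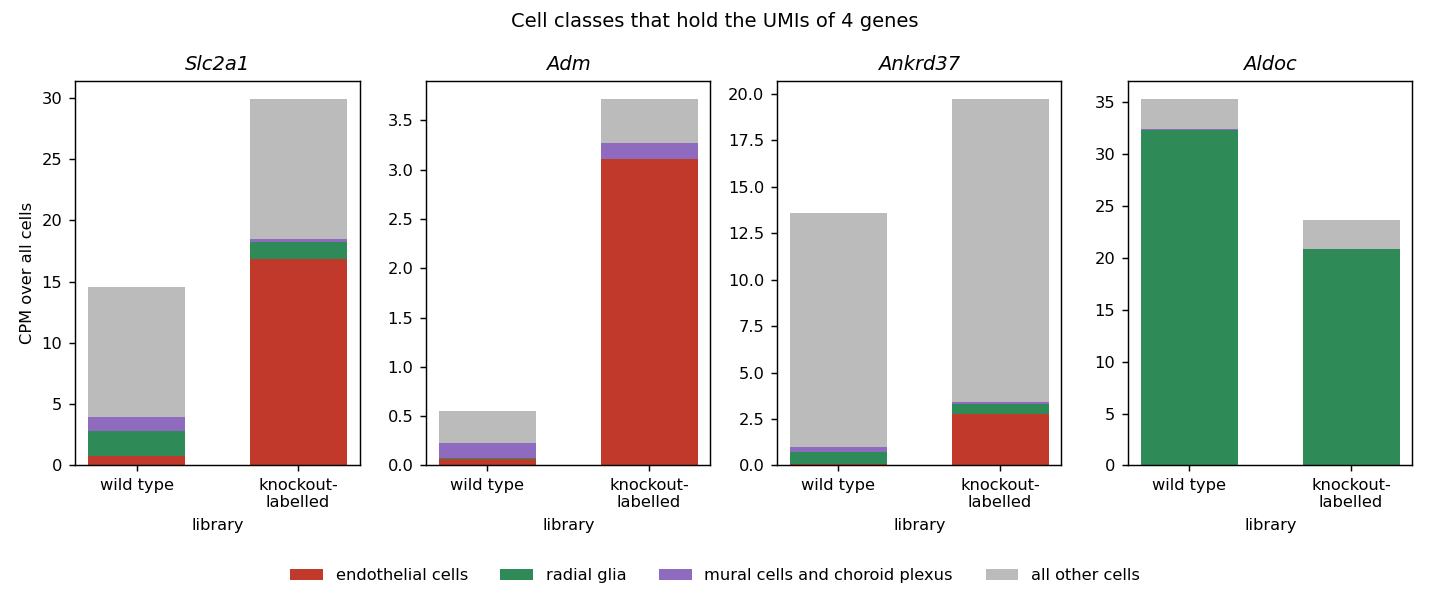
CPM over all cells of Slc2a1, Adm, Ankrd37 and Aldoc in each library, as stacked bars by the cell class that held the UMIs. Endothelial cells make up most of the second bar of Slc2a1 and Adm, and radial glia make up nearly all of both bars of Aldoc.

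In the other direction, Aldoc had 35.3 and 23.6 CPM over all cells, a log2 ratio of -0.58 (-0.65 to -0.50), just short of 1.5-fold. Radial glia held 91.5% and 88.4% of its UMIs, and were 3.99% and 2.44% of the cells. Within radial glia the levels were 603 and 568 CPM (-0.09, -0.16 to -0.01), and without radial glia they were 3.15 and 2.84 CPM (-0.15, -0.39 to 0.09). The 10 radial glia markers summed to 1496 and 1237 CPM over all cells, with 1 of 10 higher in the knockout-labelled library. Among the remaining measured members, Egln1 had 49.1 and 58.3 CPM (0.25, 0.19 to 0.30) and Pfkp 28.6 and 33.0 CPM (0.21, 0.14 to 0.28). Ldha stood at 242 and 227 CPM (-0.10, -0.12 to -0.07) and Pgk1 at 154 and 152 (-0.02, -0.05 to 0.01). The ratio of Ldha turned to 0.09 with equal weights for each cluster, and to 0.17 among cells of 5000 to 15000 UMIs.

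The excitatory class differed in make-up, since cluster 9, led by Tfap2d, held 140 wild-type and 677 knockout-labelled cells of it. In excitatory neurons 22 members were measured and 0 passed the size rule, beside 0.266% of 6765 genes. The interval lay above 1 for 12 members and below 1 for 1, where 14.8% and 22.7% of all genes lay above and below. The median log2 ratio was 0.07, beside -0.01 over all genes. By subclass, the median log2 ratio of the measured members was 0.08 in migrating neurons, beside -0.02 over all genes. It was 0.003 in deep-layer neurons (all genes -0.02), 0.03 in other excitatory neurons (-0.005) and 0.04 in upper-layer neurons (-0.004). Members lay on both sides of 0 in each, from -0.11 to 0.22 in migrating neurons and from -0.20 to 0.37 in upper-layer neurons. Over the whole class, the hypoxia targets accounted for 8 of the 12 (Pdk1, Egln1, P4ha1, Higd1a, Fam162a, Vegfa, Ddit4 and Mif), out of 10 measured. Egln1 had 52.6 and 61.4 CPM (0.22, 0.15 to 0.29), Higd1a 80.5 and 91.2 (0.18, 0.12 to 0.24) and Pfkp 36.4 and 40.7 (0.16, 0.07 to 0.25). The 4 members of glycolysis with intervals above 1 were Pfkp, Aldoa, Tpi1 and Pgam1. With equal weights for each cluster the ratio of Ddit4 was -0.09. Aldoa had 107 and 114 CPM, and Pgam1 had 202 and 210. Ldha was the only member below, with 232 and 220 CPM (-0.07, -0.11 to -0.04), and it reversed to 0.15 among cells of 5000 to 15000 UMIs. Without cluster 9 the count below 1 was 0 and the count above 1 was 11. Hk1 with 59.2 and 58.0 CPM (-0.03, -0.10 to 0.04) and Pgk1 with 115 and 114 (-0.00, -0.05 to 0.05) spanned 1. Within this class the sum of GABAergic markers was 17.8 and 34.9 CPM, with 9 of 9 higher in the knockout-labelled library, and that of choroid plexus markers was 27.8 and 83.4, with 6 of 8 higher. Their part in these ratios was not tested.

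The GABAergic class also differed in make-up. Cluster 16, led by Sst, held 143 and 389 of its cells, and cluster 10, led by Isl1, held 192 and 594. In sums over the class, a different make-up and a different level within cells cannot be told apart. With that limit, most measured members in GABAergic neurons had a higher level in the knockout-labelled library, among them enzymes of glycolysis, Ldha and the oxygen sensor Egln1. Whether this differs from other classes was not tested. Of 22 measured members, 16 had an interval above 1 and 0 below, beside 11.5% and 15.1% of 6839 genes. The median log2 ratio was 0.16, and over all genes it was -0.01. None passed the size rule (0.614% of all genes did). Of 12 measured members of glycolysis 9 lay above 1 (median 0.15), and of 10 hypoxia targets 7 lay above 1 (median 0.19). Summed over glycolysis, the class held 2230 and 2395 CPM.

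The members with the largest ratios came from several roles. P4ha1 had 15.4 and 20.5 CPM (0.42, 0.19 to 0.65), Gpi1 had 68.7 and 87.6 CPM (0.35, 0.24 to 0.46), and Higd1a had 80.8 and 103 CPM (0.35, 0.25 to 0.45). Ldha stood at 66.5 and 84.3 CPM (0.34, 0.23 to 0.45), while its partner Ldhb had 253 and 269 (0.09, 0.03 to 0.15). Pdk1, Aldoa, Vegfa, Pfkl, Tpi1, Ddit4, Pgk1, Egln1, Eno1, Pgam1, Pkm and Mif were the other 12, with log2 ratios from 0.30 for Pdk1 to 0.04 for Mif. Gapdh had 961 and 965 CPM (0.01, -0.02 to 0.04). The only measured member with a ratio under 1 was Fam162a, with 66.9 and 66.7 CPM (-0.00, -0.12 to 0.11). The intervals of Hk1, Pfkp, Kdm3a and Ankrd37 also spanned 1. Across the alternatives of processing the number of members above 1 in this class ran from 13 to 18 and the median from 0.15 to 0.17. Shares of all genes under those alternatives are not given here.

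**Figure D3:**
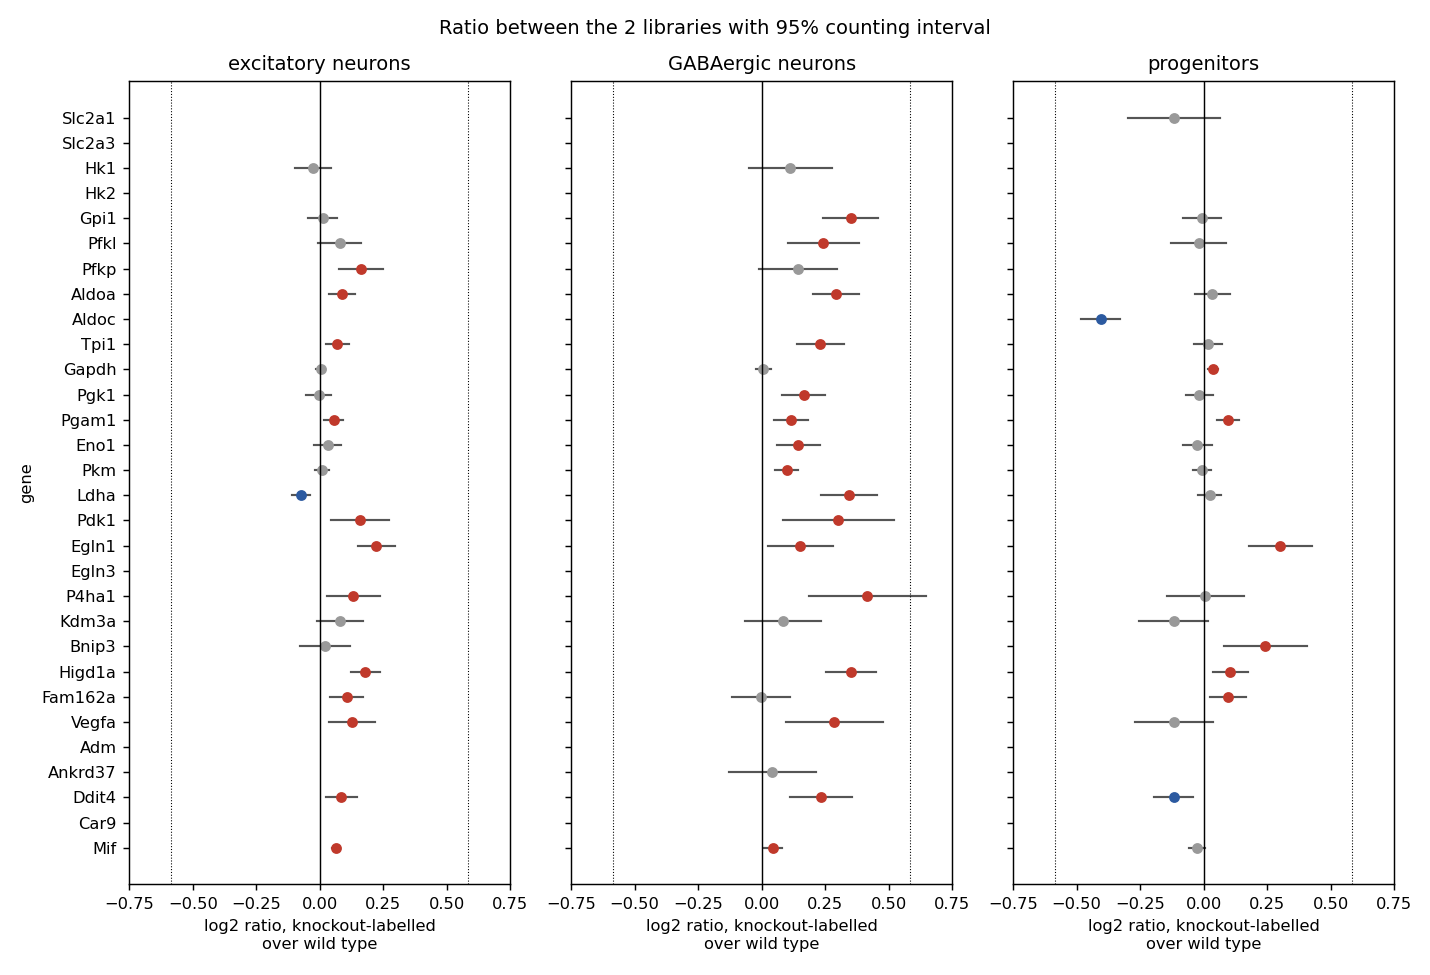
Log2 ratio (knockout-labelled divided by wild type) for each measured member in excitatory neurons, GABAergic neurons and progenitors, with the 95% counting interval as a line; red points lie above 1-fold, blue below, and dotted lines mark 1.5-fold. In GABAergic neurons 16 points are red and none is blue, and in progenitors 6 are red and 2 are blue.

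Values that moved with this class are given beside it. The 9 GABAergic markers summed to 2482 and 2348 CPM, with 2 of 9 higher in the knockout-labelled library. Endothelial markers summed to 12.4 and 20.6 CPM, with 10 of 10 higher and Ly6c1 at 0 in wild type, astrocyte markers to 31.1 and 46.4, and choroid plexus markers to 76.3 and 109. Median depth was 7055 and 6065 UMIs per cell. Their part in the result was not tested. With each cell given the same weight, 16 members again lay above 1. The share of cells with a Higd1a UMI was 8.35% (7.20 to 9.62) and 8.41% (7.52 to 9.37) after thinning to 1000 UMIs, which is no difference at that depth. At 2000 UMIs it was 13.1% (11.6 to 14.7) and 15.9% (14.7 to 17.3), and unthinned it was 37.1% and 39.2%.

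Within the GABAergic class, MGE interneurons, as the sum of 2 clusters, had the highest median ratio over all measured members and over glycolysis (0.30). For hypoxia targets their median was 0.17, beside 0.18 in CGE or LGE interneurons and 0.21 in striatal neurons. Of 22 measured members 14 lay above 1 and 0 below, beside 12.6% and 15.5% of 6942 genes, and the median log2 ratio was 0.25 against -0.02 over all genes. Gpi1 passed the size rule, as 1.93% of genes did, with 46.4 and 73.3 CPM (0.66, 0.46 to 0.86). Ldha had 51.6 and 76.3 CPM (0.56, 0.37 to 0.76), P4ha1 14.2 and 20.9 (0.56, 0.19 to 0.94), Higd1a 63.7 and 93.0 (0.55, 0.37 to 0.72) and Aldoa 91.2 and 133 (0.54, 0.40 to 0.69). In CGE or LGE interneurons 8 of 21 measured members lay above 1 and 0 below (6.18% and 6.21% of genes). There Pfkl passed the size rule, with 30.0 and 45.8 CPM from 76 and 184 UMIs (0.61, 0.22 to 1.02), where 1.76% of genes did. In striatal neurons 8 members lay above 1 and 0 below, beside 7.87% and 9.19% of genes.

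The MGE class was the sum of 2 clusters whose proportions differed between the libraries. Cluster 2, led by Nxph1, Lhx6, Maf and Sst, held 660 and 813 cells, which are 82.2% and 67.6% of the class. Cluster 16, led by Sst, Snhg11, Lhx8 and Zic4, held 143 and 389 cells, or 17.8% and 32.4%. Nxph1, Lhx6 and Maf were not among its 10 leading genes, so the name MGE interneuron is less certain for cluster 16. Gpi1 stood at 34.6 and 38.9 CPM in cluster 2 (0.17, with an interval that spanned 1) and at 89.9 and 126 in cluster 16 (0.48). Aldoa had 80.1 and 89.4 CPM in cluster 2 (0.16) and 132 and 199 in cluster 16 (0.59). Higd1a had 46.3 and 60.7 CPM in cluster 2 (0.39) and 128 and 142 in cluster 16 (0.15). Within cluster 2 the number of members above 1 was 7 of 22 (Tpi1, Eno1, Pkm, Ldha, Egln1, P4ha1 and Higd1a) and 0 lay below, beside 5.68% and 9.06% of genes. Its median log2 ratio was 0.09. The medians over all measured members were 0.15 in CGE or LGE interneurons and 0.11 in striatal neurons. The first rank of the summed MGE class thus does not hold for cluster 2. Within cluster 16, 9 members lay above 1 (Gpi1, Aldoa, Tpi1, Gapdh, Pgk1, Pgam1, Pkm, Bnip3 and Mif), and Pfkp lay below at -0.39, beside 9.98% and 9.88% of genes. Its median was 0.23. The ratios of Gpi1 (0.66) and Higd1a (0.55) over the summed class were thus larger than in either cluster. Tpi1 and Pkm were above 1 in both clusters.

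**Figure D4:**
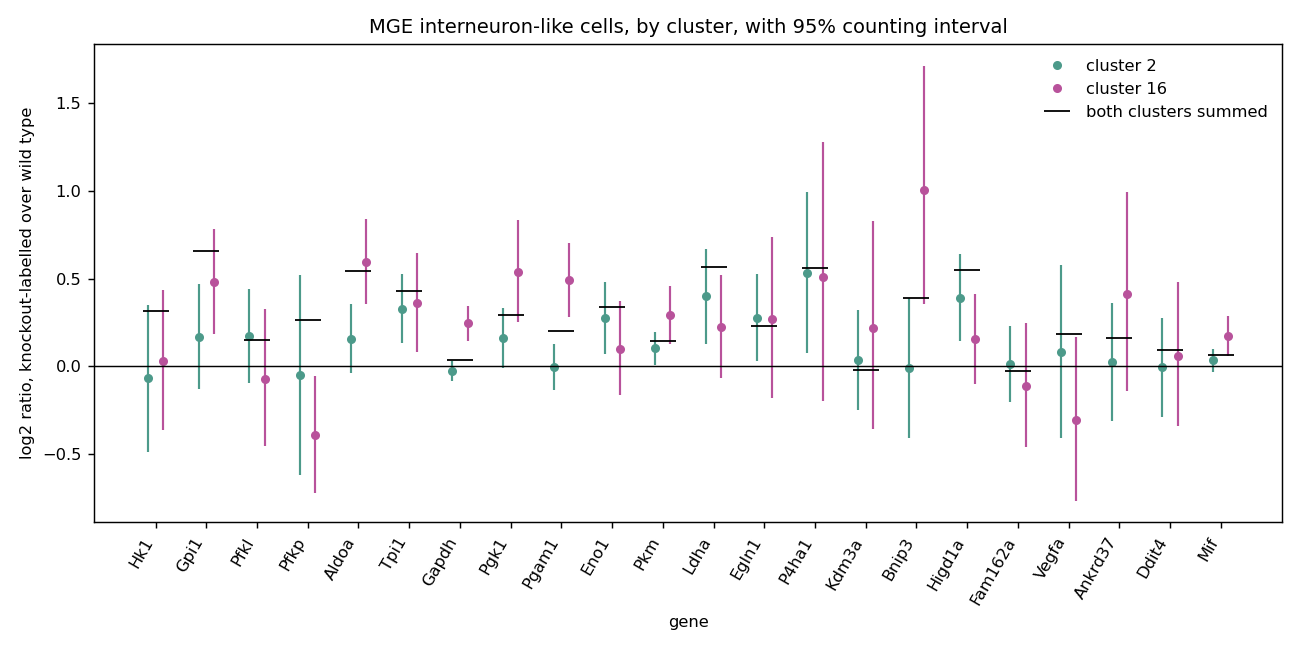
Log2 ratio (knockout-labelled divided by wild type) for 22 members in clusters 2 and 16, with 95% counting intervals as lines, and over both clusters summed (black dashes). Both clusters were named MGE interneurons, a name that is less certain for cluster 16. The dashes of Gpi1, Hk1, Ldha and Higd1a lie above the points of both clusters. Cluster 16 makes up 17.8% of the wild-type and 32.4% of the knockout-labelled cells of the class.

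In progenitors 21 members were measured, 0 passed the size rule (0.276% of genes), 6 lay above 1 and 2 below, beside 10.3% and 21.7% of 6887 genes. The median was -0.01, and over all genes it was -0.03. The count below 1 was 6 with doublets kept, 5 at the finer clustering, 5 with each cell weighted equally and 0 with equal weights for each cluster. Egln1 had 41.4 and 51.0 CPM (0.30, 0.18 to 0.43), Bnip3 24.6 and 29.1 (0.24, 0.08 to 0.41) and Higd1a 147 and 158 (0.10, 0.04 to 0.17). Fam162a, Pgam1 and Gapdh were the other 3 above, so all 3 mitochondrial members were among them. Aldoc was on the other side with 142 and 107 CPM (-0.41, -0.48 to -0.33), as did Ddit4 with 124 and 115 (-0.12, -0.19 to -0.04). Kdm3a stood at 39.5 and 36.4 CPM (-0.12, -0.26 to 0.02) and Slc2a1 at 22.8 and 21.0 (-0.12, -0.30 to 0.06). The 10 radial glia markers summed to 4236 and 3664 CPM in progenitors, with 1 of 10 higher in the knockout-labelled library. The ratio of Ddit4 was 0.00 with equal weights for each cluster. Within radial glia alone, P4ha1 had 48.8 and 60.3 CPM (0.31, 0.05 to 0.57), Egln1 47.4 and 59.1 (0.32, 0.05 to 0.58) and Hk2 35.7 and 26.8 (-0.41, -0.77 to -0.07). Of 25 members measured in radial glia 7 lay above 1 and 3 below, beside 5.87% and 8.8% of all genes. The median log2 ratio of the measured members was -0.04 in dividing progenitors, beside -0.02 over all genes. It was 0.14 in GE progenitors (all genes -0.01) and 0.06 in intermediate progenitors (-0.03). Members lay on both sides of 0 in each of these subclasses.

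Across the 22 clusters with at least 100 cells in each library, Egln1, Higd1a and Tpi1 had a ratio above 1 most often. They are the top of a ranking of the members by this same count. The ratio of Egln1 was above 1 in 20 clusters, with an interval above 1 in 10 and below 1 in 0. Higd1a was above 1 in 19, with an interval above in 9 and below in 0. Their log2 ratios ran from -0.47 to 0.64 and from -0.19 to 0.47. Tpi1 was also above 1 in 19, with 5 intervals above and 1 below. Pgam1 was above 1 in 18 clusters, with 8 intervals above and 0 below. Ldha was mixed, with 8 intervals above and 4 below, and so was Gapdh, with 5 above and 4 below. Clusters of 1 library share that library, so these counts are not replicates. The share of all genes that reach such counts is not given, so the counts cannot be read as particular to these members.

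**Figure D5:**
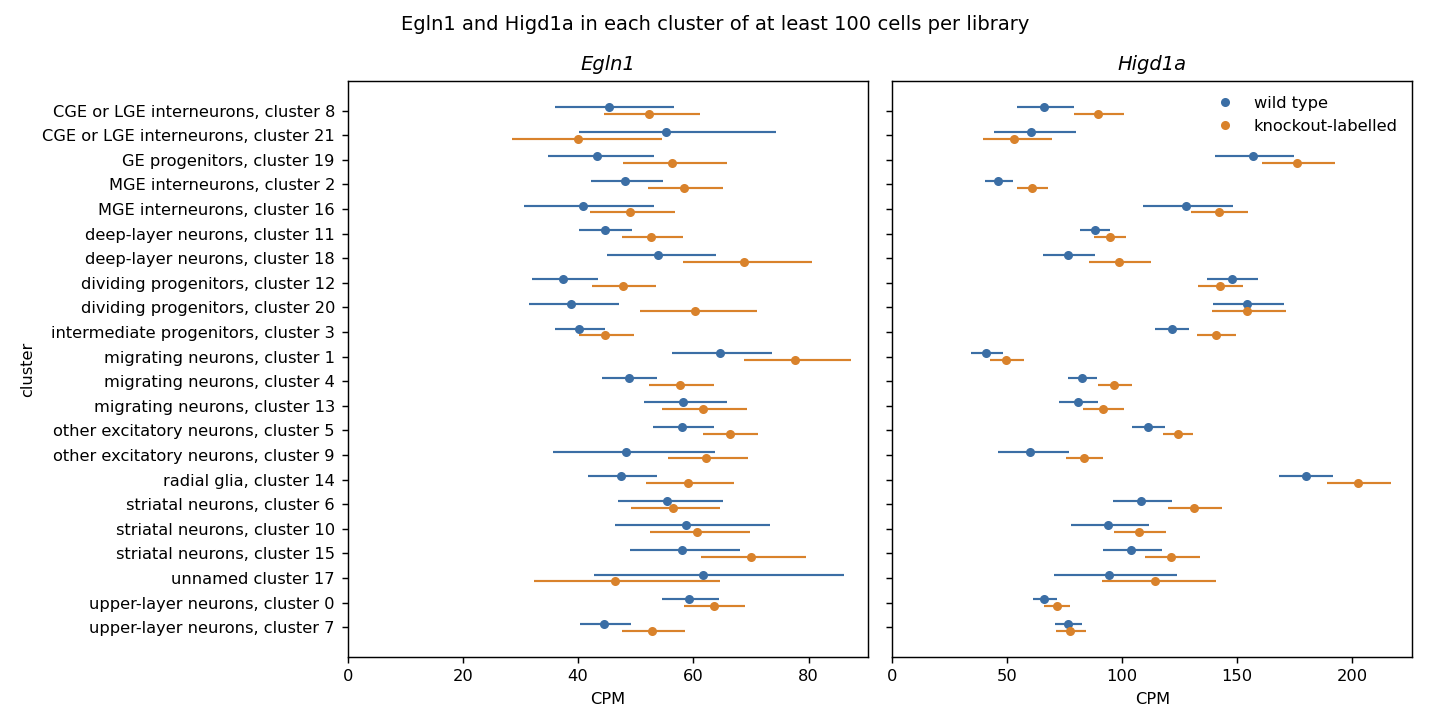
CPM of Egln1 (left) and Higd1a (right) in each cluster of at least 100 cells per library, with exact 95% Poisson intervals as lines; blue is wild type and orange is knockout-labelled. The orange point lies to the right of the blue one in 20 of 22 clusters for Egln1 and in 19 of 22 for Higd1a. These genes are among the leading members by this count, and the share of all genes that reach it is not given.

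The 64 further genes of these pathways lay in both directions. Over all cells 21 were measured, with 5 above 1 and 4 below. In excitatory neurons it was 3 above and 5 below of 22, in GABAergic neurons 1 above (Ldhb) and 4 below of 19, and in progenitors 1 above and 2 below of 18. None passed the size rule in these comparisons. Hif1a had 89.4 and 90.5 CPM over all cells (0.02, -0.02 to 0.06), and the prolyl hydroxylase Egln2 had 59.2 and 59.0. Arnt2, a neuronal partner of the hypoxia-inducible factor, had 79.2 and 66.5 CPM in GABAergic neurons (-0.25, -0.36 to -0.14). It also stood lower in progenitors with 30.5 and 26.0 (-0.23, -0.39 to -0.07). Arnt, the general partner, had 23.0 and 19.9 CPM in GABAergic neurons (-0.20). Bnip3l, the relative of Bnip3, had 193 and 186 CPM over all cells (-0.06, -0.09 to -0.03) and 220 and 207 in GABAergic neurons (-0.09). Pfkm, the muscle phosphofructokinase, had 44.3 and 41.3 CPM in excitatory neurons (-0.10, -0.19 to -0.02). The lactate carriers Slc16a1, with 11.7 and 9.34 CPM over all cells, and Slc16a3, with 2.61 and 3.39, and the neuronal enolase Eno2, with 10.91 and 11.003, were under the minimum level.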

How the data were processed

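The authors deposited raw UMI counts for every gene and barcode. Per the file headers they come from Cell Ranger 4, and the submitters' processing notes name mm10 as the genome. Settings and annotation release: not given in the sources used here. Counts were whole numbers with the same genes in both libraries. The symbol Aldoa stands for 2 gene entries, which were added. The members and lists were chosen with earlier results of these data known.

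A minimum of 1000 UMIs and 500 genes and a maximum of 10% mitochondrial UMIs left 9086 and 12855 cells. Doublets were scored with Scrublet as run by scanpy 1.11.5, and the top 0.8% per 1000 cells were removed (660 and 1322 cells). The automatic threshold marked 213 and 386. Clustering used 2000 variable genes, 30 principal components, 15 neighbours and the Leiden method at resolution 1 (igraph 0.11.9, leidenalg 0.10.2), which gave 30 clusters. Clusters were named from marker lists, by a rule that was revised after the clusters were seen. A name needed at least 3 markers 1.5-fold up and no more markers of another class among the 10 leading genes.

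UMIs were summed per class and library and divided by all UMIs of the class. Ratios carry an exact conditional 95% interval for 2 Poisson counts, shares an exact binomial one (Clopper-Pearson, scipy 1.17.1). PCR duplicates are removed by UMIs, and the intervals cover counting error only. With 1 library per group there is no test between groups. All 30 members are accounted for; full values with intervals are given for members past the size rule and for the 3 largest log2 ratios in each direction in the main comparisons (all cells, excitatory neurons, GABAergic neurons and progenitors), and highest and lowest classes for the levels. Of the 64 further genes, Eno2, Ldhb, Pfkm, Egln2, Hif1a, Epas1, Arnt, Arnt2, Slc16a1, Slc16a3 and Bnip3l are named; other genes named were chosen after their values were seen. The rules were also run on simulated Poisson counts. The intervals assume that same model, so this run says nothing about variation between libraries or in class make-up. Alternatives covered scaling, the filter on low counts, cell filters, doublets, free RNA, clustering resolution, cluster weights, cell depth and left-out cells. Gene positions are of mm10, and promoters are those of RefSeq. Python 3.11.15, numpy 2.4.6, pandas 2.3.3 and matplotlib 3.10.9 were used.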

Additional observations from a re-analysis of the deposited data

Results flagged for a closer look

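Ldha and Ddit4 had counting intervals on opposite sides of 1 in different classes, and the difference between the classes was not tested. Ldha had a log2 ratio of 0.34 in GABAergic neurons and -0.075 in excitatory neurons. Ddit4 had 0.085 in excitatory neurons, 0.23 in GABAergic neurons and -0.12 in progenitors.

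The barcodes above 10% mitochondrial UMIs, 427 and 691 in number, were left out of all comparisons and held more of some members than the cells did. Pfkp stood at 221 and 168 CPM in them, beside 28.6 and 33.0 CPM in cells. Vegfa stood at 84.3 and 97.9 CPM, beside 32.1 and 33.8 CPM in cells. Gapdh was lower in them, with 272 and 298 CPM beside 1133 and 1120.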

How the results depend on the processing

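Of 1112 values of single genes under the alternatives, 998 stayed within their counting interval, 103 left it without a reversal of an interval that had left out 1, and 11 reversed. Over all cells, Gapdh reversed to 0.00336 with median-of-ratios scaling. With equal cluster weights Gapdh was 0.015, Ldha 0.091 and Vegfa -0.015 over all cells, Ddit4 was -0.088 in excitatory neurons and 0.0011 in progenitors. 4 alternatives were chosen after seeing the data: leaving out endothelial cells, leaving out clusters 9 and 16, keeping cells of 5000 to 15000 UMIs, and weighting each cell equally. Slc2a1 over all cells was -0.080 without endothelial cells. Among cells of 5000 to 15000 UMIs, Gapdh was 0.081 and Ldha 0.17 over all cells, Ldha 0.15 in excitatory neurons and Ddit4 0.010 in progenitors. The number of members past the size rule and higher over all cells was 2 without a filter on low counts, and 0 with a 50 CPM filter, with doublets kept, with equal cluster weights, without endothelial cells, among cells of 5000 to 15000 UMIs and with each cell weighted equally; the last also gave 1 lower. Without the filter 1 member was past the rule and higher in excitatory neurons, 1 was lower in GABAergic neurons, and 1 GABAergic interval lay below 1, as 1 did with each cell weighted equally. Members above 1 over all cells were 6 with a 50 CPM filter, which tests fewer genes, 17 with equal cluster weights and 18 at 5000 to 15000 UMIs, and those below were 0 and 1 under the last pair. Members below 1 in excitatory neurons were 0 without clusters 9 and 16, at 5000 to 15000 UMIs and with each cell weighted equally. In progenitors they were 6 with doublets kept, 0 with equal cluster weights, 5 at resolution 2 and 5 with each cell weighted equally. Shares of all genes under the alternatives are not given beside these counts, so a changed count cannot be read as particular to the members. The median of the hypoxia targets in progenitors was 0.095 at 50 CPM and 0.10 with equal cluster weights, which also gave 0.076 for glycolysis over all cells. At 5000 to 15000 UMIs the medians were 0.12 over all cells, 0.13 for glycolysis and 0.12 for hypoxia targets, 0.095 for glycolysis in excitatory neurons, 0.086 in progenitors and 0.13 for glycolysis there. The share of radial glia with an Aldoc UMI was 61.2% and 56.6% at 2000 UMIs and 87.8% and 84.3% unthinned, and that of GABAergic neurons with a Higd1a UMI 13.1% and 15.9%, and 37.1% and 39.2%. With doublets kept, Aldoc gave 68.9% of aldolase UMIs in wild-type radial glia. Allowing GCGTG gave 78.0% of member promoters. The cause of the other changes was not tested. No paired analysis was possible because each group has 1 library. Members with under 100 UMIs, such as Car9, could not be compared at this depth.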
